A study of Mus musculus with 106 samples.

Results

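Kit, Flt3, Cd34, Ly6a, Procr, Slamf1, Tek, Cd48 and Eng encode surface proteins by which blood stem and progenitor cells are recognised, and their chromatin was read in mouse bone marrow progenitors and in the macrophages grown from bone marrow. These 9 genes of 21938 protein-coding genes were chosen by name. Each was followed at its promoter, which is the stretch within 1 kb of any annotated start site, and across the gene with 20 kb on either side. Chromatin immunoprecipitation sequencing (ChIP-seq) of 2 histone marks gave 70 peak lists among the 106 samples, 35 for acetylation of histone H3 at lysine 27 (H3K27ac, found at active promoters and enhancers) and 35 for trimethylation at lysine 4 (H3K4me3, found mainly at promoters), and the other 36 samples were input DNA. All mice were C57BL/6J and aged 12 to 14 weeks when they were assigned to the control or the diabetic group. Diabetic mice had received streptozotocin, which destroys insulin-producing beta cells, at 42 to 45 mg/kg per day for 5 days, and cells were taken 6 weeks later from animals with a blood glucose above 13.9 mmol/L. Controls were nondiabetic mice of matched age. The HSC group was bone marrow depleted of cells bearing CD3, CD4, B220, Ter119 or Gr1, and was not sorted for Kit or Sca-1, so that it holds progenitors of many kinds beside stem cells. Bone marrow-derived macrophages (BMDM) of both kinds of mice were grown for 7 days in 5 mmol/L glucose with medium conditioned by L929 cells, a source of macrophage colony-stimulating factor, and either had no stimulus or were exposed for 16 h to lipopolysaccharide (LPS, 100 ng/mL) with interferon-γ (IFN-γ, 10 ng/mL). Each mark had 6 libraries of every cell and disease group, except for 5 of unstimulated diabetic BMDM, in which replicate 3 was not analysed here.

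Kit is the receptor of stem cell factor and Flt3 that of FLT3 ligand, and both are tyrosine kinases that carry survival and growth signals in progenitors. Tek (TIE2) is the angiopoietin receptor of endothelium and of quiescent stem cells, and Eng (endoglin) is a co-receptor for TGF-β family ligands in both. Cd34 is a sialomucin, Ly6a encodes Sca-1, Procr encodes the endothelial protein C receptor, and Slamf1 (CD150) and Cd48 are the SLAM family pair whose presence and absence mark mouse stem cells.

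The deposited lists give each peak a −log10 p against the input, and the measure used throughout is a promoter percentile, which ranks a gene's best promoter peak among all protein-coding genes of the same library. Genes with no promoter peak share the bottom ranks, so that absence appears as a percentile of 13.2 to 21.6 in H3K27ac and of 10.3 to 29.6 in H3K4me3. Peak numbers ranged from 13730 to 277213 per list (median 110154), and sequencing depth is unknown because the lists hold no read totals. In bulk cells a smaller share of cells with a mark cannot be told apart from less mark per cell. No label ties libraries to animals, so that p-values measure the spread between libraries only. As to the labels, the mean H3K27ac percentile of 10 erythroid marker genes was 38.8 to 60.7 in the HSC libraries and 26.2 to 31.1 in unstimulated BMDM, whereas that of 12 macrophage genes was 25.1 to 36.0 in HSC and 31.2 to 52.6 in BMDM. For 14 LPS and interferon response genes the mean ran from 34.4 to 48.8 in unstimulated and from 39.0 to 57.6 in stimulated BMDM, so that 6 of 11 unstimulated and 7 of 12 stimulated libraries lay in the overlap. Results that rest on BMDM are also given without control replicates 5 and 6 of both BMDM states, a set taken over from earlier work on these libraries. Of these 4, stimulated replicate 5 (39.0) and unstimulated replicate 6 (46.8) lay toward the other state by this mean, whereas stimulated replicate 6 (49.5) and unstimulated replicate 5 (41.6) did not stand apart. Unstimulated control replicate 1 (48.8) and stimulated diabetic replicate 6 (41.5) also lay toward the other state and were kept. The set is thus not a choice by this mean.

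At the promoters of Kit and Flt3 H3K27ac was higher in HSC than in unstimulated BMDM, and at the Procr promoter it was lower. For these 3 genes the deposited lists bear on the promoter directly, and its 300 bases are therefore printed. They run 5′ to 3′ on the gene's strand across the start site and come from RefSeq on GRCm38.p6. Most of the bases lie before the start site in Kit and Flt3, and about as many before as after it in Procr. Capitals mark a GATA motif (AGATAA), a RUNX motif (TGTGGT), an ETS motif (GGAAGT) or an E-box (CAGCTG) on either strand, so that ACTTCC is an ETS match on the other strand.
Kit promoter, chr5:75574737-75575036, plus strand: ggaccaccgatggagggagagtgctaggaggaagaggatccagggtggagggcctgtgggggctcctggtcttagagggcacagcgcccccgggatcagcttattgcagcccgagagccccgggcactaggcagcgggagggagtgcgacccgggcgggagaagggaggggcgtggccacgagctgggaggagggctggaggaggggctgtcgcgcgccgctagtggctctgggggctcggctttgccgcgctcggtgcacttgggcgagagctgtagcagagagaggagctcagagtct
Flt3 promoter, chr5:147400440-147400739, minus strand: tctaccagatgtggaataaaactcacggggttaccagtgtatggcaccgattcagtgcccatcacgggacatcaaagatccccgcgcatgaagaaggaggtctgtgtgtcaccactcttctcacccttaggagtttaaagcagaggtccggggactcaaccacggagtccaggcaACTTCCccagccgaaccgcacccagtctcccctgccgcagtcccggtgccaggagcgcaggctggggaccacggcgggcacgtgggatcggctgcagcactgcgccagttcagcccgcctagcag
Procr promoter, chr2:155750967-155751266, plus strand: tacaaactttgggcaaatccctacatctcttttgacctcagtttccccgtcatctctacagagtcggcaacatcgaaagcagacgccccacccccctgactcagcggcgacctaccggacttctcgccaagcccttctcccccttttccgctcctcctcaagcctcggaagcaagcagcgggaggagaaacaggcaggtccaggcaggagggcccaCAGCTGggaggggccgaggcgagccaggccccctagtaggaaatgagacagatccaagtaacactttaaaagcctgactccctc
The Kit sequence holds none of the 4 motifs and has 20 CG dinucleotides and 69% G and C. Flt3 has 1 ETS motif, 18 CG and 61%, and Procr has 1 E-box, 13 CG and 58.3%. Over 32851 promoters of the same length the median was 7 CG and 52.7%, and the GATA motif was present in 11.2%, the RUNX motif in 16.8%, the ETS motif in 23.8% and the E-box in 16.3%. Promoters of 8 of the 9 genes were matched, with Ly6a named only. Kit, Flt3 and Procr had more CG than Cd34, Slamf1, Tek, Cd48 and Eng, which had 3 to 7. A match is a run of letters and no evidence of a bound factor.

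Kit (ENSMUSG00000005672, chr5:75574916-75656722 on GRCm38) had an H3K27ac promoter peak in 12 of 12 HSC libraries, in 9 of 11 unstimulated BMDM libraries and in 9 of 12 stimulated ones. The percentile in HSC was 46.3 at the lowest, 55.1 at the median and 64.2 at the highest. In unstimulated BMDM the 3 values were 17.8, 38.6 and 48.6, and in stimulated BMDM 18.7, 35.8 and 43.8. Of the HSC libraries 11 of 12 lay above every unstimulated BMDM library. The fitted difference, averaged over control and diabetic, was 18.8 percentile points (SE 3.32, 95% interval 12.3 to 25.3, limma adjusted p = 3.09e-05), and 17.7 without the 4 control BMDM libraries (adjusted p = 0.000282). Where each list was cut to its 10000 strongest peaks it was 9.79 and did not pass (limma adjusted p = 0.0631). Within control libraries it was 24.8 (exact permutation p = 0.00216, two-sided, the smallest that 6 against 6 allows, adjusted p = 0.0328) and within diabetic ones 12.8 (exact permutation p = 0.00216, adjusted p = 0.0296). Among all peaks of a library the best Kit promoter peak ranked at a median of 10689 in HSC, 53013 in unstimulated and 68411 in stimulated BMDM, so that macrophage peaks, where called, were weak.

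Flt3 (ENSMUSG00000042817, chr5:147330741-147400489) followed the same order. Its percentile in HSC ran from 50.0 through a median of 58.5 to 68.6, with a peak in 12 of 12 libraries. Unstimulated BMDM gave 17.8, 44.1 and 51.2, with a peak in 9 of 11, and stimulated BMDM 18.7, 42.4 and 51.4, with a peak in 9 of 12. The groups overlapped by 1 HSC library, since 11 of 12 lay above all unstimulated BMDM. The difference was 17.9 points (SE 4.01, 95% interval 10.1 to 25.8, limma adjusted p = 0.000684), and 18.9 without the 4 control BMDM libraries (adjusted p = 0.00117). It was 19.2 within control (exact permutation p = 0.00216, adjusted p = 0.0328) and 16.6 within diabetic libraries (exact permutation p = 0.00433, adjusted p = 0.0405).

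Procr (ENSMUSG00000027611, chr2:155751117-155755471) ran the other way. Every library had an H3K27ac promoter peak, but the HSC percentile was 38.4, 48.5 and 54.5 at its lowest, median and highest, against 51.3, 61.8 and 76.6 in unstimulated and 60.0, 72.8 and 92.8 in stimulated BMDM. Of the HSC libraries 8 of 12 lay below all unstimulated BMDM, and HSC and stimulated BMDM did not overlap. HSC minus unstimulated BMDM was −14.9 points (SE 3.45, 95% interval −21.7 to −8.14, limma adjusted p = 0.000981), and −13.5 without the 4 control BMDM libraries (adjusted p = 0.00488). Within control libraries it was −17.8 (exact permutation p = 0.00433, adjusted p = 0.0472). Within diabetic ones it was −12.0 and did not pass after adjustment (exact permutation p = 0.0152, adjusted p = 0.0856).

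**Figure D1:**
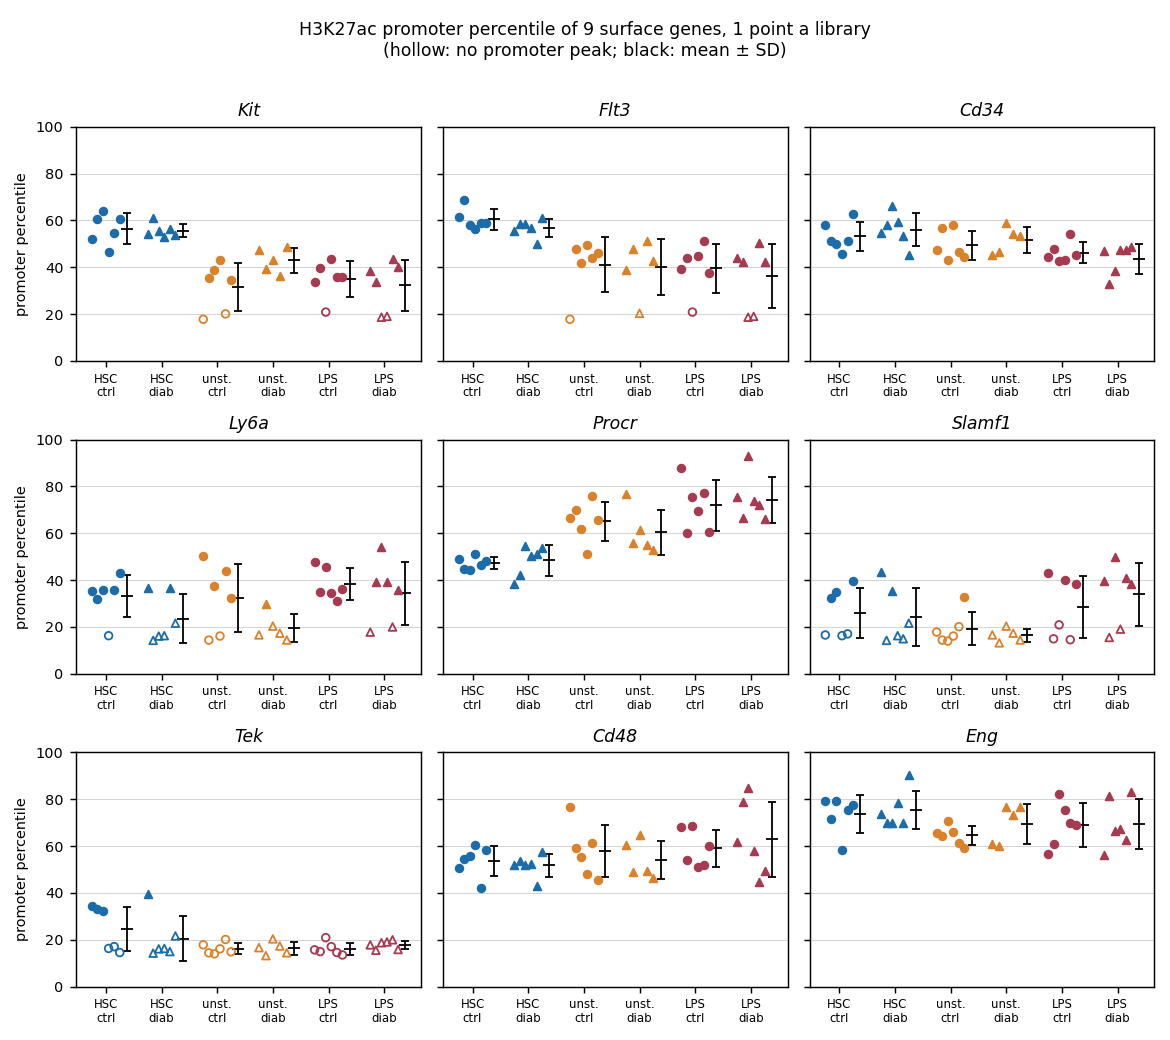
H3K27ac promoter percentile (vertical axis, 0 to 100) of the 9 genes in each of the 35 libraries, by cell state and disease group; circles are control and triangles diabetic libraries, hollow points have no promoter peak, and black bars show mean ± SD. Kit and Flt3 sit higher in HSC than in BMDM, Procr sits lower, and Tek is at the bottom in all but 4 HSC libraries.

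Counted over the 9 genes, 2 were higher in HSC, 1 was lower and 6 did not pass. Of all 17620 genes tested, 29.8% were called in this contrast (2681 higher and 2577 lower), so that 3 of 9 is near the background and the set as a whole is not set apart by its number of calls. The median difference was 6.22 over the 9 genes and 0.275 over all genes tested. The value of 6.22 is that of Tek, which had promoter peaks in HSC libraries only. It is thus set against the shared rank of genes with no peak, and no lean of the set is read from it.

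Eng (ENSMUSG00000026814, chr2:32646595-32682669) had the highest H3K27ac of the 9 at its promoter in HSC, with a percentile of 58.4, 74.6 and 90.4 at the lowest, median and highest. Unstimulated BMDM gave 59.1, 65.7 and 76.6, and stimulated BMDM 56.2, 68.1 and 83.0, so that the groups overlapped widely. The difference of HSC from unstimulated BMDM was 7.53 (SE 3.39, 95% interval 0.884 to 14.2, limma adjusted p = 0.0888). Without the 4 control BMDM libraries it was 6.42 (limma adjusted p = 0.204). Within control libraries it was 9.10 (exact permutation adjusted p = 0.169) and within diabetic ones 5.95 (exact permutation adjusted p = 0.507). Control HSC replicate 4 (58.4) was the lowest HSC library, and only without it did the difference pass among these settings (9.04, limma adjusted p = 0.0366).

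A region inside the Eng gene separated the cells more clearly than its promoter. It lies 8.58 kb after the start site, at chr2:32653817-32656539 on GRCm38. The summits in HSC had their median at position 32655024, within an intron and outside annotated exons. The 300 bases around the median summit are printed because all 12 HSC libraries had a peak here, and capitals mark the same 4 motifs.
Eng intragenic region, chr2:32654874-32655173, plus strand: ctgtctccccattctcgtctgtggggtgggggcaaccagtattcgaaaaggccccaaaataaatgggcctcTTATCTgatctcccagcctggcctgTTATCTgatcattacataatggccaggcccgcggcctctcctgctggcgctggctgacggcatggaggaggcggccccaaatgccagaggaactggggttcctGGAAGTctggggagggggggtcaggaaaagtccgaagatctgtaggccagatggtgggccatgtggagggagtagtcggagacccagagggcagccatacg
The stretch holds 2 GATA motifs (TTATCT is a match on the other strand), 1 ETS motif, 10 CG and 59.3% G and C. In 300-base windows of 16414 H3K27ac regions, which were placed at region centres and not at summits, the GATA motif was present in 5.54% and the ETS motif in 19.4%. Peaks here ranked between 7403 and 11432 among all peaks of each HSC library (median 9744.5). They ranked between 25227 and 51317 in the 10 of 11 unstimulated BMDM libraries with a peak, and between 15951 and 55181 in 11 of 12 stimulated ones, so that the ranks of HSC and BMDM did not overlap. Among each library's 20000 strongest peaks the region was held in 12 of 12 HSC, 0 of 11 unstimulated and 2 of 12 stimulated BMDM libraries (Fisher's exact test of HSC against unstimulated BMDM, two-sided, adjusted p = 0.000147). With the 10000 strongest it was held in 6, 0 and 0 and did not pass (adjusted p = 0.108). A smaller site at +12.7 kb had a peak in 12 of 12 HSC, 1 of 11 unstimulated and 4 of 12 stimulated libraries.

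Tek (ENSMUSG00000006386, chr4:94739289-94874976) had almost no H3K27ac at its promoters. A peak was listed in 4 of 12 HSC libraries, which were control replicates 1, 2 and 3 (34.3, 33.0 and 32.2) and diabetic replicate 1 (39.5), and in 0 of 23 BMDM libraries. These peaks ranked between 41131 and 110058 in their libraries, and the difference of 6.22 (SE 2.75) did not pass (limma adjusted p = 0.0833). Of 11 endothelial marker genes tested, which include Tek's relative Tie1 (22.8 higher in HSC, limma adjusted p = 2.31e-06), 2 were higher in HSC, 2 lower (Flt1 by −17.7 and Kdr by −13.3) and 7 did not pass. The mean percentile of that list was 30.7 to 40.4 in HSC and 31.3 to 39.5 in unstimulated BMDM. Its part in the Eng and Tek values was not tested.

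Cd34 (ENSMUSG00000016494, chr1:194938819-194961279) had an H3K27ac promoter peak in all 35 libraries. The percentile was 45.2, 54.0 and 66.2 in HSC, 43.1, 47.5 and 58.8 in unstimulated and 32.8, 45.9 and 54.3 in stimulated BMDM, again as lowest, median and highest. HSC exceeded unstimulated BMDM by 4.11 (SE 2.79, 95% interval −1.36 to 9.58, limma adjusted p = 0.274). The strongest acetylation near Cd34 was 38.1 kb after its start, past the gene's end and at the starts of the noncoding genes A330023F24Rik and Gm16897. It was held among the 10000 strongest peaks in 12 HSC, 11 unstimulated and 11 stimulated libraries, and thus in HSC and BMDM alike.

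Ly6a (ENSMUSG00000075602, chr15:74994877-74998031) showed weak promoter acetylation, with a peak in 7 of 12 HSC, 5 of 11 unstimulated and 10 of 12 stimulated libraries. The percentile was 14.3, 33.6 and 42.9 in HSC, 14.4, 20.3 and 50.2 in unstimulated BMDM and 17.8, 36.0 and 54.1 in stimulated BMDM, so that all 3 states overlapped. The difference of HSC from unstimulated BMDM was 2.29 (SE 4.21, limma adjusted p = 0.717). A region 8.84 kb after the start, past the gene's end and over the pseudogene Gm8000, was far stronger than the promoter. It was among the 10000 strongest peaks in 11 of 12 HSC, 7 of 11 unstimulated and 12 of 12 stimulated libraries. Ly6a belongs to a cluster of near-identical Ly6 genes, and how reads that fit several of them were placed is not given in the sources used here, so that its values are uncertain.

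Of the SLAM pair, Cd48 had an H3K27ac promoter peak in all 35 libraries and Slamf1 in 13. Cd48 (ENSMUSG00000015355, chr1:171682009-171705258) had percentiles of 42.1, 53.0 and 60.5 in HSC, 45.7, 55.5 and 76.6 in unstimulated and 44.8, 58.9 and 84.8 in stimulated BMDM, and HSC minus unstimulated was −3.20 (SE 3.94, 95% interval −10.9 to 4.51, limma adjusted p = 0.572). Slamf1 (ENSMUSG00000015316, chr1:171767127-171801184) had a promoter peak in 5 of 12 HSC, 1 of 11 unstimulated and 7 of 12 stimulated libraries, at ranks of 24446 or weaker in each. Its HSC minus unstimulated difference was 7.44 (SE 4.26, limma adjusted p = 0.189).

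**Figure D2:**
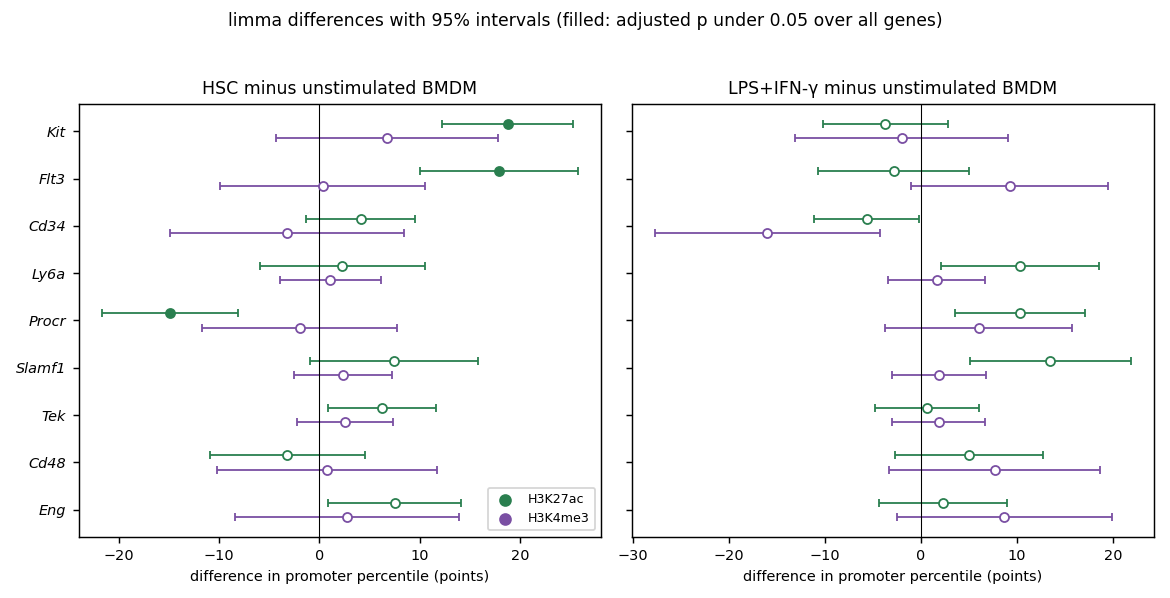
Difference in promoter percentile for each of the 9 genes, HSC minus unstimulated BMDM and stimulated minus unstimulated BMDM, in both marks; points are limma estimates, bars 1.96 standard errors to each side, and filled points passed the adjusted threshold of 0.05. Only Kit, Flt3 and Procr in H3K27ac, HSC minus unstimulated, are filled.

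The genes differed along their bodies as well as at their starts. H3K27ac peaks covered a median of 8.75 kb of the Kit window in HSC (2.54 to 14.6), 2.31 kb in unstimulated BMDM (0.41 to 4.41) and 1.41 kb in stimulated BMDM (0.326 to 3.29). For Flt3 the medians were 9.91, 4.36 and 3.61 kb, and for Procr 2.29, 3.17 and 5.92 kb. For Eng they were 19.1, 15.7 and 11.8 kb, and for Tek 0.49, 1.13 and 1.31 kb. Covered length grows with the number of peaks called, which in H3K27ac was 51162 to 139452 in HSC and 52470 to 176559 in the BMDM libraries, and the part of list length in these lengths was not tested. In 200-bp bins, Kit had 13 bins where the share of libraries with a peak was at least 60 percentage points higher in HSC than in unstimulated BMDM, and 0 the other way. A bin 16.5 kb into Kit was covered in 11 of 12 HSC, 0 of 11 unstimulated and 0 of 12 stimulated libraries, and one at 23.5 kb in 11, 2 and 1. Flt3 had 21 such bins and 1 the other way. The bin at 7.2 kb was covered in 11 HSC libraries and in 0 of both BMDM states, and the bin at 61.0 kb, near the far end of the gene, in 12, 0 and 0. Procr had 0 bins higher in HSC and 4 higher in BMDM, 3 of them from 13.5 to 13.9 kb after its start, where 0 HSC, 8 unstimulated and 12 stimulated libraries had a peak. Eng had 9 bins and Cd34 1 bin higher in HSC, and neither had any the other way. Cd48 had 3 and Tek 2 higher in BMDM, and neither had any higher in HSC. The Cd48 bin at 30.3 kb was covered in 0 HSC, 10 unstimulated and 12 stimulated libraries. The Tek bin at 152.7 kb, past the gene's end, was covered in 0, 8 and 7. Bins were picked by this difference and carry no test.

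**Figure D3:**
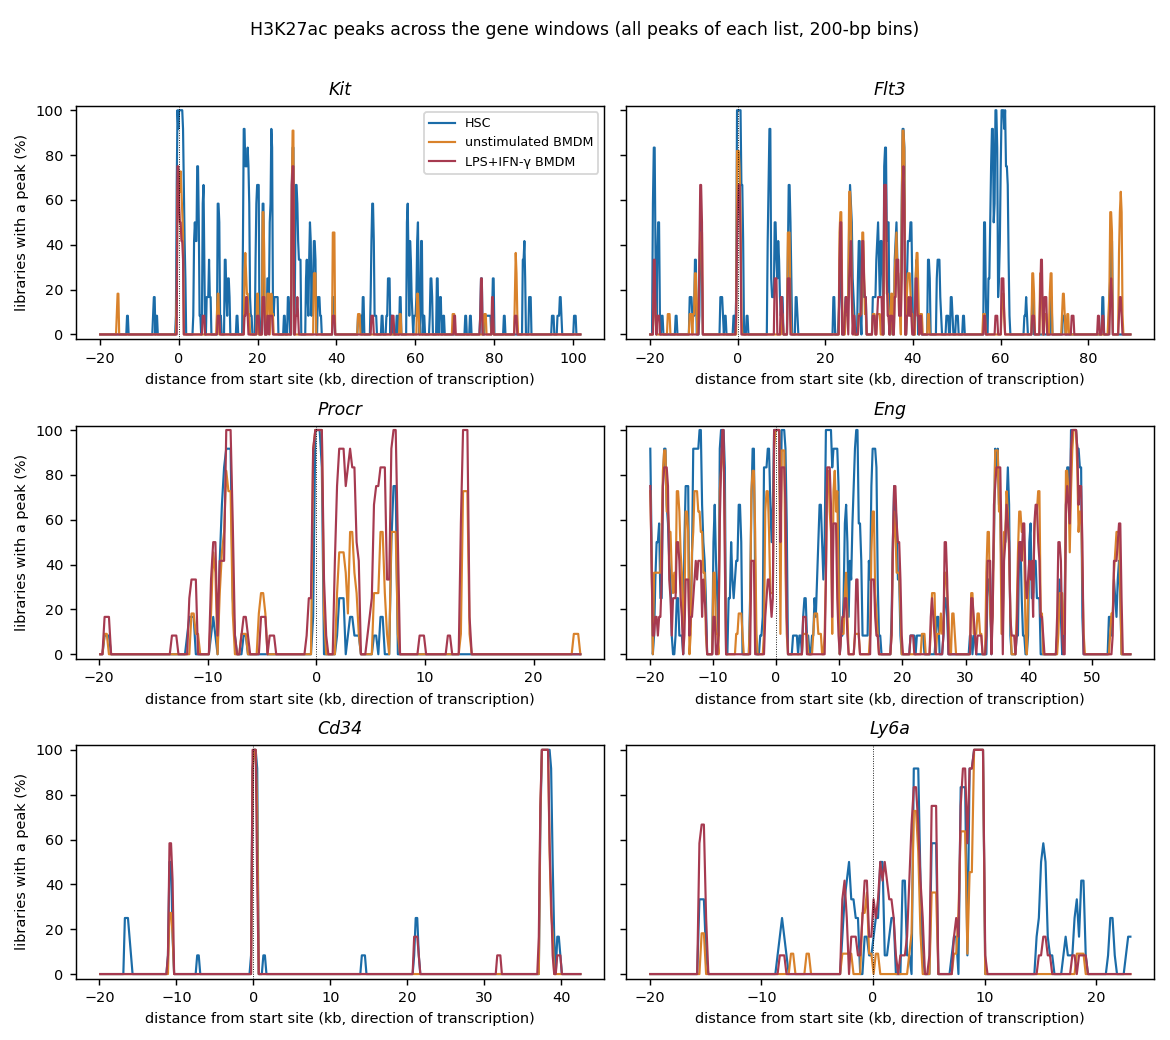
Share of libraries with an H3K27ac peak (vertical axis, percent) in 200-bp bins along Kit, Flt3, Procr, Eng, Cd34 and Ly6a, by distance from the start site in kb in the direction of the gene; lines are HSC, unstimulated BMDM and stimulated BMDM. The HSC line stands alone at many positions along Kit and Flt3, such as 16.5 kb and 61.0 kb, and is at 0 near 13.7 kb after the Procr start, where BMDM have peaks.

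As regions held among the 10000 strongest H3K27ac peaks, 12 lay in the windows of the 9 genes and 1 was called, while 7.16% of 16414 regions were called over the genome. The call was the Flt3 promoter, held in 9 of 12 HSC, 0 of 11 unstimulated and 0 of 12 stimulated libraries (Fisher's exact test, two-sided, adjusted p = 0.00829). It met the rule of at least 2 libraries through HSC alone, so that its count adds no support. The Procr promoter was held in 0 of 12 HSC, 6 of 11 unstimulated and 11 of 12 stimulated libraries (adjusted p = 0.0502), and the Kit promoter in 4, 0 and 0 (adjusted p = 0.39). With the 20000 strongest peaks 38 regions lay in the windows and 3 were called, against 6.14% of 44612. These were the Eng intragenic region, the Flt3 promoter (12, 2 and 2, adjusted p = 0.00293) and the Kit promoter (11, 1 and 0, adjusted p = 0.00411). The Kit promoter, too, met the rule of at least 2 libraries through HSC alone, and its count adds no support. Slamf1 and Tek had no region among the 10000 strongest.

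**Figure D4:**
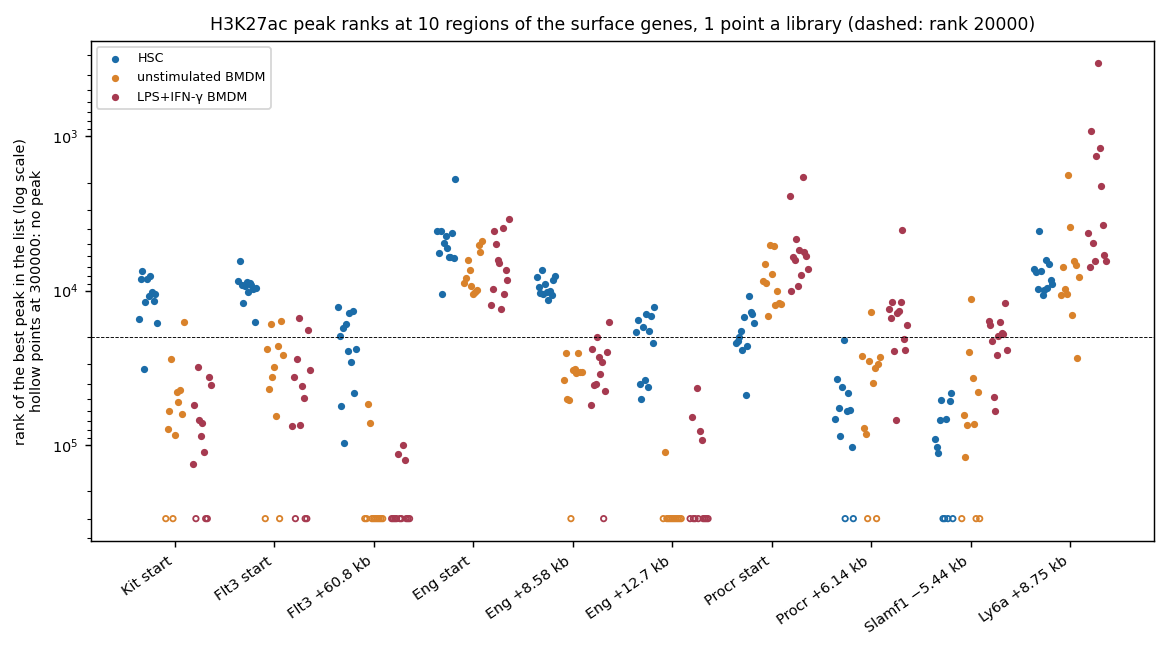
Rank of the peak at 10 regions of the 9 genes among all H3K27ac peaks of each library (regions of the 20000 strongest peaks; log axis, strongest at the top; dashed line at rank 20000; hollow points, no peak). At the Eng region 8.58 kb after the start all 12 HSC libraries rank between 7403 and 11432 and every BMDM peak ranks lower.

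In H3K4me3 the percentiles of HSC and unstimulated BMDM overlapped at all 9 promoters, as they did in H3K27ac. Overlap was not counted over all genes, and no contrast between the marks is read from it. Kit had an H3K4me3 promoter peak in 11 of 12 HSC, 11 of 11 unstimulated and 12 of 12 stimulated libraries, with percentiles of 19.9, 64.1 and 86.4 in HSC, 45.9, 55.2 and 69.9 in unstimulated and 38.7, 54.8 and 66.0 in stimulated BMDM. Its difference between HSC and unstimulated BMDM was 6.77 (SE 5.65, 95% interval −4.31 to 17.8, limma adjusted p = 0.414). Flt3 differed by 0.317 (adjusted p = 0.976) and Procr by −1.98 (adjusted p = 0.81) in the same fit. Flt3 thus had H3K4me3 peaks in 11 of 11 unstimulated BMDM libraries, where its H3K27ac ranked low. Eng and Cd34 had an H3K4me3 peak in all 35 libraries and Cd48 in 8, 8 and 9 of the 3 states. Ly6a had one in 0, 2 and 3, Slamf1 in 0, 1 and 2, and Tek in 0, 1 and 2. None of the 9 genes was called in this mark, where 16.5% of 17955 genes were, and nothing about the set is read from this count. The median difference of the 9 was 1.10, against −0.24 over all genes. The value of 1.10 is that of Ly6a, which had no H3K4me3 promoter peak in any HSC library. Of 11 regions in the windows 0 were called, against 0.748% of 18187. H3K4me3 lists had a median of 49624 peaks in control HSC and 161118 in unstimulated control BMDM, and of 89111 and 96580 in the diabetic groups. The part of list length in these values was not tested. Whether the H3K27ac and H3K4me3 differences of Kit and Flt3 differ from each other was not tested either.

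**Figure D5:**
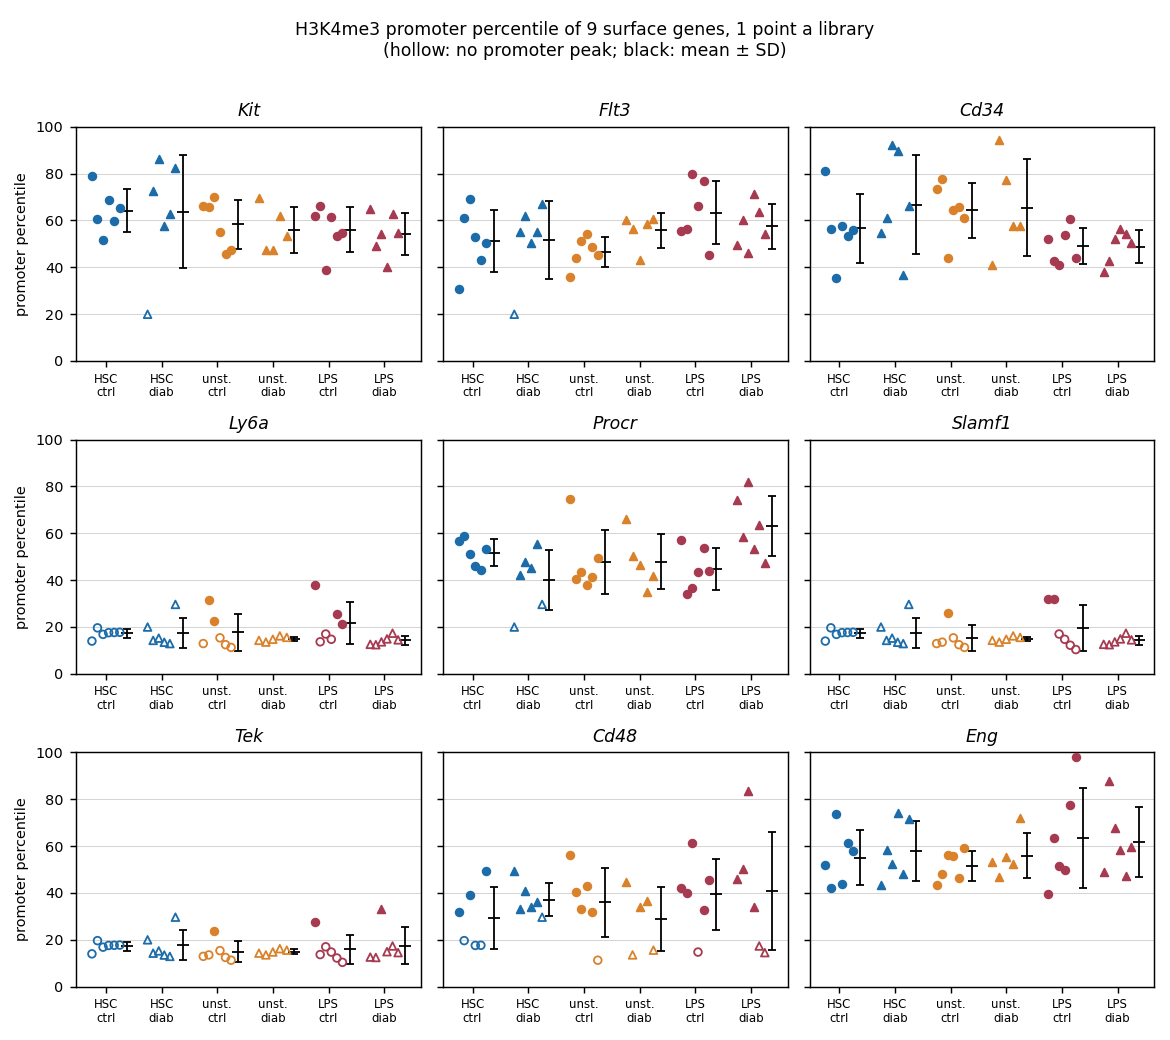
H3K4me3 promoter percentile (vertical axis, 0 to 100) of the 9 genes in each of the 35 libraries, drawn as for H3K27ac. HSC and BMDM overlap for all 9 genes, as HSC and unstimulated BMDM do in H3K27ac, and Ly6a, Slamf1 and Tek are mostly hollow.

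Stimulation of BMDM moved none of the 9 promoters past the adjusted threshold. In H3K27ac 2.22% of all genes were called (184 higher and 207 lower). Slamf1 was higher by 13.5 in stimulated cells (SE 4.26, 95% interval 5.13 to 21.8, limma adjusted p = 0.0843), with 7 of 12 stimulated libraries above all unstimulated ones. Procr was higher by 10.3 (SE 3.45, 95% interval 3.59 to 17.1, limma adjusted p = 0.101), and Ly6a by 10.3 (SE 4.21, limma adjusted p = 0.189). Without the 4 control BMDM libraries Slamf1 (15.8, limma adjusted p = 0.0385) and Procr (12.5, adjusted p = 0.0453) passed. For Slamf1 the set left out holds unstimulated control replicate 6, the only unstimulated library with a promoter peak. Every unstimulated value that remained was thus the shared rank of genes with no peak. A site 6.14 kb after the Procr start had peaks at a median rank of 14563.5 in stimulated, 29849 in unstimulated BMDM and 58405.5 in HSC. A site 5.44 kb before the Slamf1 start had peaks in 12 of 12 stimulated libraries (median rank 19417) and in 8 of 11 unstimulated ones (54577). Kit (−3.68) and Flt3 (−2.80) did not pass (limma adjusted p = 0.608 and 0.774). In H3K4me3, where 0% of genes were called and 1001 had an unadjusted p under 0.05, Cd34 was lower by −16.0 after stimulation (SE 5.95, limma adjusted p = 0.836). Among the 13 LPS and interferon response genes tested in H3K27ac, 3 were called higher, namely Cxcl10 (17.9), Ccl5 (16.8) and Socs1 (10.8), and 0 were lower.

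Diabetes changed none of the 9 promoters by the adjusted test in either mark or any cell state. In HSC 0.00568% of all genes were called in H3K27ac, which is 1 gene that is not among the 9, and 401 had an unadjusted p under 0.05. Kit in HSC had a median of 57.6 in control (46.3 to 64.2) and 54.9 in diabetic libraries (53.0 to 61.2), a difference of −0.706 (95% interval −9.69 to 8.28). Flt3 had 59.0 (56.4 to 68.6) and 57.6 (50.0 to 61.1), a difference of −3.65 (95% interval −14.5 to 7.20). Procr had 47.3 (44.4 to 51.3) and 50.8 (38.4 to 54.5), a difference of 1.12 (95% interval −8.21 to 10.4). These intervals leave room for differences of several points in either direction and stop short of the 18.8, 17.9 and −14.9 points between HSC and unstimulated BMDM.

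In unstimulated BMDM 0% of genes were called in H3K27ac and 1021 had an unadjusted p under 0.05. Kit there was 17.8, 34.9 and 43.1 at the lowest, median and highest in control libraries, with a peak in 4 of 6. The 5 diabetic libraries had 47.5, 39.3, 43.2, 36.1 and 48.6, each with a peak. The groups overlapped, and the difference of 11.4 (SE 4.81) did not pass (limma adjusted p = 0.798). Ly6a was 14.4, 34.9 and 50.2 in control, with a peak in 4 of 6. Its diabetic libraries had 16.6, 29.7, 20.3, 17.3 and 14.4, of which only the value of 29.7 came from a peak. That difference of −12.7 (SE 6.09) did not pass either (limma adjusted p = 0.854). In stimulated BMDM 0% were called, 828 had an unadjusted p under 0.05, and none of the 9 was among these. The effect of diabetes on the step from HSC to unstimulated BMDM, as an interaction, called 0% of genes in H3K27ac (562 with an unadjusted p under 0.05), and for Kit it was −12.1 (SE 6.64, limma adjusted p = 1.00).

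In H3K4me3 diabetes called 0% of genes in HSC, 0% in unstimulated and 0% in stimulated BMDM, with 840, 720 and 924 genes at an unadjusted p under 0.05, and the interaction called 0% (756). Procr in stimulated BMDM came nearest. It was 33.9, 43.7 and 56.9 at the lowest, median and highest in control and 47.4, 60.9 and 81.9 in diabetic libraries. Its difference of 18.3 (SE 6.85) did not pass (limma adjusted p = 0.919). In HSC the Procr difference was −11.7 (limma adjusted p = 0.999), with no peak in 2 of 6 diabetic libraries.

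Genes that act with the 9 showed their own mixture of directions in H3K27ac between HSC and unstimulated BMDM. The counts of these lists stand beside the 29.8% of all genes called in this contrast, and nothing particular to a list is read from them. Of 8 genes for ligands of these receptors 1 was higher in HSC, 3 were lower and 4 did not pass (median −6.74). Angpt1, a ligand of Tek, had a peak in 12 of 12 HSC, 0 of 11 unstimulated and 4 of 12 stimulated libraries, and its difference of 28.5 from unstimulated BMDM is set against the shared rank of genes with no peak. Kitl, which encodes stem cell factor, was lower by −23.7 (SE 3.03, limma adjusted p = 9.85e-08), opposite in sign to its receptor Kit. Angpt2 was lower by −20.1 (limma adjusted p = 9.77e-05). In H3K4me3 0 of the 8 were higher and 2 lower, which were Kitl (−23.2, limma adjusted p = 0.0019) and Flt3l, the FLT3 ligand gene (−16.6, limma adjusted p = 0.0378).

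Of 16 transcription factors of stem and progenitor cells 8 were higher in HSC in H3K27ac, 3 lower and 5 did not pass (median 7.80). The largest differences were those of Myb (21.2, limma adjusted p = 4.85e-08), needed for progenitor growth, Gfi1b (18.5, adjusted p = 0.000119), whose product represses transcription in erythroid and megakaryocytic cells, and Hoxa9 (15.2, adjusted p = 0.000559). The 3 lower genes were Hhex, Runx1 and Fli1, named here after their values were seen. In H3K4me3 0 were higher and 2 lower, Lyl1 (−19.7) and Fli1 (−12.7). Among 14 other progenitor surface genes 5 were higher, 4 lower and 5 did not pass (median −0.706). Fcgr3, which encodes an Fc receptor, was lower by −22.4 and Cd93 by −15.4. Itga2b was the single one of 13 called in H3K4me3 (−16.4). The other SLAM genes gave 2 higher of 7, Cd244a (18.3, limma adjusted p = 0.00174) and Slamf6 (14.2, adjusted p = 0.00421), 0 lower and 5 that did not pass, with a median of −4.95. In H3K4me3 0 of 5 were called. Of 14 signalling partners of Kit and Flt3, 1 was higher, the phosphatase gene Ptpn11 (12.5), and 4 were lower, among them the inhibitor gene Spred1 (−13.6) and the kinase gene Lyn (−12.1), with a median of −3.55. In H3K4me3 the adaptor gene Gab2 was higher (16.8) and the other 13 did not pass. Stimulation called 0 genes of these 5 lists, and diabetes 0.

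Markers of other cells that lineage-depleted marrow can hold were read in the same contrast, in which 29.8% of all genes were called. The erythroid genes tested were higher in HSC, as were Kit and Flt3. The mast cell and basophil list was tested in only 3 of its 6 genes, and the other lists were mixed or mostly did not pass. Of 10 erythroid genes 8 were tested in H3K27ac and 8 were higher in HSC, among them Hba-a1 (40.9) and Hbb-bt (28.4). The list of 6 mast cell and basophil genes was read because mast cells keep Kit. Of the 6 genes 3 were tested and 3 were higher, Gzmb (16.7), Hdc (16.3) and Mcpt8 (10.3). Gzmb and Mcpt8 had no peak in any BMDM library and were thus tested through HSC alone. Their list mean was 21.9 to 31.4 in HSC and 16.1 to 24.5 in unstimulated BMDM, and Cpa3, Fcer1a and Ms4a2 had a promoter peak in fewer than 2 libraries. Of 8 neutrophil genes tested 2 were higher, Ctsg (21.1) and Mpo (17.1), and of 9 lymphoid genes 3 were, Cd79b (15.2), Cd3g (10.4) and Blk (8.44). Megakaryocyte genes gave 1 higher, Gp9 (14.4), 2 lower, Pf4 (−13.5) and Ppbp (−10.2), and 4 that did not pass. Macrophage genes gave 0 higher, 4 lower, led by Cd14 (−24.3), Cd68 (−21.9) and Mertk (−20.7), and 6 that did not pass. The part of these cells in the values of the 9 genes was not tested.

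Some promoters ran close to these genes over the 35 H3K27ac libraries, which share their 3 cell states and their list lengths. By Pearson's r, as a description, Kit was most like Zfp2 (0.898) and St6galnac3 (0.859), and Flt3 like Shank3 (0.878) and Cers4 (0.853). Procr was nearest to Stra6l (0.853) and Gadd45b (0.85), and Cd48 to Laptm5 (0.876) and Wdfy4 (0.855). Cd34 paired with Sox18 (0.741) and Arxes1 (0.733), Ly6a with Phf11d (0.7) and H2-Oa (0.673), Slamf1 with Serpina3f (0.629) and Bpifc (0.626), and Eng with Gm49383 and Dnaaf2 (both 0.663). Tek had a promoter peak in too few libraries to be compared.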

How the data were processed

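The authors deposited a narrowPeak list for each ChIP library, and replicates were not pooled. Deposited columns hold the fold enrichment over input as a linear ratio, the −log10 p and −log10 q of each peak, and the summit offset, a number of another kind. Reads were 50-bp single reads. Per the submitters' processing notes the tools were Trim Galore 0.3.3, cutadapt 1.8, FastQC 0.11.3, Bowtie2 2.2.6, Picard, bedtools 2.19.1 and MACS2 2.2.7.1, with GRCm38 (mm10). Input lists were not used, and read depth is not given.

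Promoters were 1 kb to each side of 93513 start sites. The best −log10 p was ranked over 21938 genes, and genes with a promoter peak in at least 2 libraries were tested with limma 3.58.1 (R 4.3.3) on 6 group means over 35 libraries per mark, with Benjamini-Hochberg adjustment at 0.05. Single genes were also compared by exact permutation. The 10000 strongest peaks of each list were merged into regions, those in at least 2 libraries were kept, and their occupancy was compared by Fisher's exact test. Scripts were tested on simulated data. Named genes were the 9, up to 3 called genes of each list by absolute difference, and the 2 nearest patterns of each member marked in at least 6 libraries, and some genes under this rule are not reported here. Members and lists were chosen with earlier results of these data known. No 2 lists shared more than 0.00728% of intervals. Alternatives were other list depths, ranking by fold, promoter width, filters, the replicate block and leaving out libraries.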

Additional observations from a re-analysis of the deposited data

Results flagged for a closer look

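In each group of 5 or 6 libraries the highest and lowest value were set against the others by Dixon's ratio, and 12 of 92 groups held a library that stood apart. Chance gives about 1 in 20 such groups where values follow a normal spread. These percentiles do not, since libraries without a peak take a shared bottom rank, so that no excess is read from this count. In H3K27ac, Flt3 had no promoter peak in unstimulated control replicate 1 (17.8), against 41.9 to 49.4 in the other libraries of its group. Procr reached 92.8 in stimulated diabetic replicate 3, against 65.9 to 75.3. Slamf1 had its single unstimulated peak in control replicate 6 (32.9, others 14.0 to 20.1), and Tek a peak in diabetic HSC replicate 1 (39.5, others 14.3 to 21.6). Cd48 was 42.9 in diabetic HSC replicate 5, against 52.0 to 57.3, and Eng 58.4 in control HSC replicate 4, against 71.6 to 79.3.

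In H3K4me3, Flt3 had no promoter peak in diabetic HSC replicate 1 (19.9, others 50.4 to 67.1) and was low in unstimulated diabetic replicate 4 (43.0, others 56.4 to 60.8). Procr was high in unstimulated control replicate 1 (74.6, others 37.9 to 49.2). Slamf1 (26.0) and Tek (23.6) had their only unstimulated peaks in control replicate 3, against 11.2 to 15.3 in the others for both, and Tek had a peak in stimulated diabetic replicate 3 (33.3, others 12.4 to 17.3).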

How the results depend on the processing

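Of 4518 values of the 9 genes under alternative settings 4299 kept their direction and their side of the threshold. A further 208 changed sign without passing under either setting, whether the shift was small or large. Beside these, 9 calls were gained, 2 were lost and 0 reversed. Kit was lost when the lists were cut to their 10000 strongest peaks (9.79, limma adjusted p = 0.0631), and Procr when diabetic libraries were tested alone. Against all BMDM, 5 of the 9 were called, with Cd34 (6.93, limma adjusted p = 0.0197) and Tek (5.89, adjusted p = 0.0447) added. Tek has no peak in any BMDM library and was tested through HSC alone, so that its calls here carry no support. Leaving out 1 library each gave 17.4 to 19.9 for Kit, 15.4 to 19.3 for Flt3 and −16.3 to −12.9 for Procr. It also brought in Tek without control HSC replicate 6 (7.22, limma adjusted p = 0.0452), and after stimulation Procr without unstimulated diabetic replicate 1 (12.4, adjusted p = 0.0437) and Slamf1 without stimulated control replicate 5 (14.9, adjusted p = 0.0413) or diabetic replicate 2 (15.3, adjusted p = 0.0446).

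Counts over all genes moved further. In H3K27ac, HSC against unstimulated BMDM called 3284 genes with the 10000 strongest peaks, and exact permutation 1617 within control and 1883 within diabetic libraries. Leaving out 1 library gave 4888 to 5390, with 3 to 4 of the 9. Stimulation called 201 with the 10000 strongest, 96 ranked by fold and 1001 without the 4 control BMDM libraries (2 of the 9 then, Procr and Slamf1). Leaving out 1 library gave 218 to 644 (0 to 1 of the 9), the extremes without stimulated control replicates 1 and 5, with 219 without unstimulated control replicate 4 and 247 without stimulated diabetic replicate 3. Diabetes in HSC called 3 genes with absent peaks at 0, and 0 with the 10000 strongest, with peaks in at least 18 libraries or without the 4 libraries. In unstimulated BMDM it called 2 with the 10000 strongest. Leaving out 1 library gave 0 to 2 in HSC, 0 to 2 in unstimulated and 0 to 1 in stimulated BMDM. H3K27ac regions numbered 2739 with the 20000 strongest peaks (3 near the 9 genes), 2 near them where peaks had to cover most of the region, and 816 to 1245 without 1 library (1 to 2, the Procr promoter being added). In H3K4me3 HSC against BMDM called 1682 with the 10000 strongest, 828 by fold, 1851 without the 4 libraries, 5102 against all BMDM, 0 by exact permutation in control and 0 in diabetic libraries (4150 and 2498 with an unadjusted p under 0.05), and 2298 to 3554 without 1 library. Stimulation called 3 without the 4 libraries and 0 to 3 without 1, diabetes in stimulated BMDM 0 to 2 and the interaction 0 to 2. H3K4me3 regions numbered 69 with the 20000 strongest, 1 by fold, 52 where peaks had to cover most of the region, 3 without unstimulated control replicates 5 and 6, and 14 to 189 without 1 library, so that these calls rest on few libraries. The cause of these shifts was not tested.

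Replicate numbers were taken as names, since no label ties libraries to animals, and the main fits hold no pairing. Same-numbered pairs with deviations correlated over 0.1 were counted. In H3K27ac they were 1 of 11 for HSC with unstimulated BMDM (−0.288 to 0.242) and 6 of 17 for control with diabetic. For unstimulated with stimulated BMDM they were 6 of 11 (−0.17 to 0.355, median 0.107, against −0.0247 between different numbers). In H3K4me3 they were 1 of 11 for HSC with unstimulated BMDM and 4 of 17 for control with diabetic. For unstimulated with stimulated BMDM they were 5 of 11 (median 0.0959, against −0.0302 between different numbers). Whether same-numbered BMDM libraries share an animal or a culture is not given by the labels. With a replicate block H3K27ac called 5121 genes (3 of the 9), stimulation 267, H3K4me3 HSC against BMDM 3067, diabetes in HSC 0 in H3K27ac, and the H3K4me3 interaction 1.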
